A study of Mus musculus with 3 samples.

Results

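The 10 cytokine genes followed here are known products of mast cells: Il4, Il13, Il5, Il6, Tnf, Osm, Il10, Csf2, Lif and Tgfb1. They were read on 3 microarrays of cultured mouse mast cells. They were chosen by name, as non-control spots carrying 1 of these 10 gene names, out of 31131 gene names on the array. They are read by 10 probes in 55 spots. The cells, called BMMCs in the labels, were mast cells grown from bone marrow of 12-week-old male C57BL/6 mice, all deficient in Pafah2, a phospholipase A2 that hydrolyses oxidised phospholipids. The first array had RNA of cells given omega-3 epoxides (17,18-EpETE and 19,20-EpDPE in a ratio of 2 to 3, 300 nM), the second of cells given 0.5 µM of GW9662, which blocks the lipid-sensing receptor PPAR gamma, and the third of cells given the DMSO vehicle. Treatment lasted 12 h in each case. The labels name no IgE or antigen stimulus, no wild-type array was analysed here, and they do not say how many mice gave the cells. There was 1 array per condition, all on 1 slide, so no value below has an error between cultures, no test was possible, and a ratio describes 2 arrays.

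Mast cells are resident immune cells that are activated when antigen crosslinks IgE on their surface receptors. They release preformed granule contents within minutes and then transcribe cytokine genes, which act on T cells, eosinophils, endothelium and the mast cell itself. Il4, Il13 and Il5 encode the type 2 cytokines of allergy and lie with Csf2 in a cluster on chromosome 11. Interleukin 6, LIF and oncostatin M signal through receptors that share the chain gp130, TNF is an inflammatory cytokine that mast cells can also store, and IL-10 and TGF beta 1 dampen immune responses.

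Which array belongs to which treatment is uncertain. In the authors' value table the epoxide column equals the scanner file of the GW9662 sample, and the column for GW9662 equals that of the epoxide sample (100% of 43020 spots at a constant quotient, within a tolerance of 0.001). The arrays are called here by the sample their scanner file is attached to. If the value table is right, each statement on the epoxide array belongs to GW9662 and the reverse. The share of non-control spots well above background lay between 52.3% and 54.6%, and no spot was saturated. Of 12 markers of mast cells, 11 were above background on all 3 arrays, the exception being the tryptase gene Tpsab1. In the list of T cell and group 2 innate lymphoid cell markers, 5 of the 8 genes on the array were above background on all 3, among them Cd3e with levels of -1.40, -0.61 and -0.31 on the epoxide, GW9662 and vehicle arrays, while Cd3d and Cd3g were not. For basophils, which also make IL-4 and IL-13, it was 3 of 5, with Itga2 and Cebpa not above background. A summed level is the log2 of linear levels added over all genes of a list on the array, also those not above background. It rests mostly on the brightest probes and cannot be compared between lists. The summed levels of the basophil list were 3.67, 3.68 and 3.70 in the same array order, where Cd200r3 alone read 3.22, 3.29 and 3.26. Those of the T cell list were 1.33, 1.63 and 1.79, and those of the mast cell list 9.0, 9.21 and 9.37. Of the macrophage markers 5 of 7 on the array were above background on all 3, with sums of 0.78, 0.79 and 0.79. Of the neutrophil markers it was 3 of 7, with 0.41, 0.98 and 0.92, and of the eosinophil markers 1 of 7 (Il5ra). The part of other cells in the cytokine signals was not tested, and fewer cells of a type cannot be told apart from less RNA per cell.

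A level is the log2 of the processed spot brightness relative to the 75th percentile of the same array, and a ratio is the difference of levels. Levels of different probes are not comparable, since probes bind with different strength. The probes are 60 bases long. The stretches of 30 bases below show what the arrays read for the members other than Il13 and Csf2, 5′ to 3′. Capitals mark ATTTA, the core of the AU-rich elements that shorten the life of many cytokine mRNAs. Where a probe holds ATTTA, the stretch shown is one that includes it.
Il4: gtccaagtccacatcactgaaagacttcct
Tnf: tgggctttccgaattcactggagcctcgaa
Tgfb1: actgcccatcgtctactacgtgggtcgcaa
Il6: ctgttacctagccagatggtttcttggaat
Osm: tgtcccctactaccactcaggacttcaagg
Lif: ggggcctttATTTAttATTTAaaacttcaa
Il5: gatgtatgcttttATTTAattctgtaagat
Il10: ctctctccgaaatATTTAttacctctgata
The pentamer occurs in the probes of Il5, Il10 and Lif, and in 8.01% of all 39429 probes on the strand printed. The bases shown are 1 to 30 of the probes of Il4, Tnf, Tgfb1, Il6 and Osm, 14 to 43 of Lif, 26 to 55 of Il5 and 19 to 48 of Il10. The probes also differ in base composition. Guanine and cytosine made up 35% of the bases for Il5, Il6 and Lif, 36.7% for Il13, 41.7% for Il10, 45% for Il4 and Csf2, 50% for Osm, 51.7% for Tnf and 55.0% for Tgfb1.

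Of the 10 members, Il4, Il13, Il6, Lif, Osm, Tnf and Tgfb1 were well above background on all 3 arrays (7 genes), and Il5, Il10 and Csf2 were on none. No measured member differed by 2-fold between any 2 arrays, where 2.28% of all measured genes did in the comparison of epoxides with vehicle, 0.823% in that of GW9662 with vehicle and 1.16% in that of epoxides with GW9662. Without a band of middle rows of the array, in which copies of the same probe disagree, these shares were 1.36%, 0.0302% and 0.268%. On the GW9662 array, 6 of the 7 were below vehicle by 0.13 to 0.49 log2 units, while Tgfb1 was level with it. On the epoxide array, Osm (-0.36) and Tgfb1 (-0.29) were the measured members farthest below vehicle. With a trend in base composition and signal removed from each array they had -0.16 and -0.0016, and Lif was lowest at -0.22. The plot of every spot shows the levels side by side, without that removal.

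**Figure D1:**
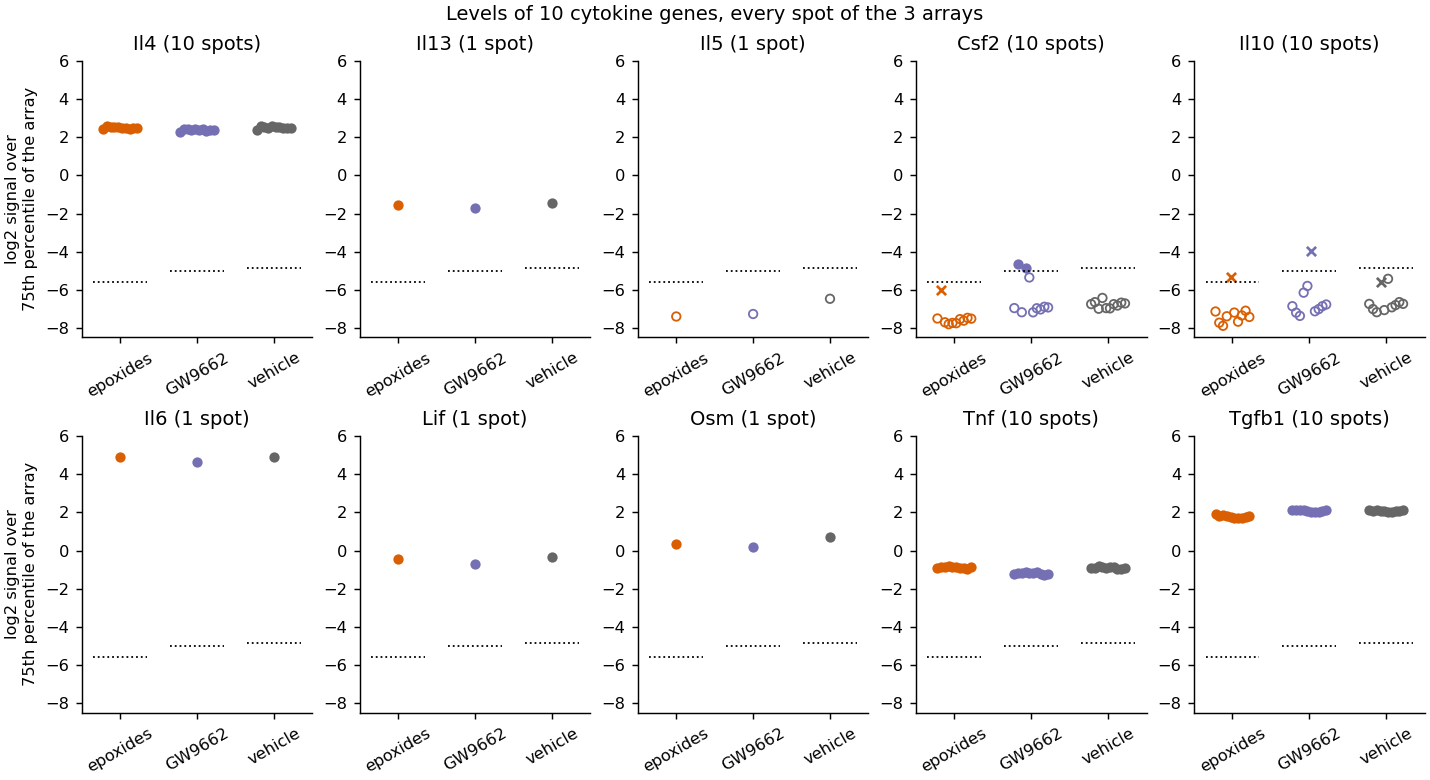
Level of each spot (vertical axis, log2 signal over the 75th percentile of its array) for the 10 genes on the epoxide, GW9662 and vehicle arrays. Filled points are spots well above background, open points are not, crosses are spots marked as outliers, and dotted lines are the lowest level called well above background (-5.57, -5.03 and -4.84). The 7 genes measured lie far above the lines on every array, while Il5, Il10 and Csf2 lie below them apart from a few spots.

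The type 2 cluster on chromosome 11 was unevenly represented. Il4, which drives the switch to IgE and the T helper 2 fate, was read by 10 copies of a probe at chr11:53426076-53426135 (minus strand, mm9). Its level was 2.51 ± 0.04 on the epoxide array, 2.39 ± 0.05 on the GW9662 array and 2.52 ± 0.06 on the vehicle array (SD over 10 copies on 1 array, spot error only). The copies ran from 2.30 to 2.46 on the GW9662 array and from 2.41 to 2.60 with vehicle, so the arrays overlapped. The ratio of GW9662 over vehicle was -0.13, negative in 10 of 10 copies, and that of epoxides over vehicle was -0.01, with 5 of 10 copies negative.

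Il13, an effector of mucus production and airway hyperreactivity, lies next to it, and 18693 bases separate the probes (chr11:53444828-53444887, minus strand, mm9). It was read by 1 spot in row 385, at -1.55 on the epoxide array, -1.70 on the GW9662 array and -1.43 with vehicle. The order of the arrays was thus vehicle, epoxides, GW9662. Ratios over vehicle were -0.11 for epoxides and -0.26 for GW9662, against an error of 0.21 for each from the scanner's error model.

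Il5, the growth and survival factor of eosinophils, was not well above background on any array. Its single spot in row 182 (chr11:53538468-53538527, plus strand, mm9) read -7.40 on the epoxide array, -7.27 on the GW9662 array and -6.47 with vehicle. The lowest levels called well above background were -5.57, -5.03 and -4.84 on these arrays. No ratio is given for such a gene, because both arrays hold only a bound.

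Csf2 encodes GM-CSF, a growth factor of myeloid cells, and its probe lies at chr11:54060894-54060952 (minus strand, mm9), 522367 bases beyond that of Il5. None of its 10 copies was well above background on the epoxide or the vehicle array, and 2 were on the GW9662 array, at -4.64 and -4.88. Another copy there read -5.35. The 5 copies outside a band of middle rows of the array, which ends at row 400, lay between -7.03 and -6.89 on the GW9662 array and between -6.83 and -6.67 on the vehicle array. Of the 10 GW9662 copies, 3 were at least 2-fold above the median of all 10, and all 3 lay inside the band. The band, with 41.9% of the spots, was marked out in earlier work on these arrays because copies of the same probe disagree there. Among copies of dim probes, 7.65% inside the band and 0.485% outside it were 2-fold or more above their probe's median on the GW9662 array. The shares were 4.73% and 1.65% on the epoxide array, and 5.38% and 0.383% with vehicle. Because the band was marked out for such disagreement on these arrays, an excess inside it is no independent support.

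Il10, an inhibitor of macrophages and of cytokine release, was also below background, at its probe at chr1:132920943-132921002 (plus strand, mm9). A single copy on the GW9662 array (-3.97, row 366) and another on the epoxide array (-5.31, row 326) were well above background, and both were marked as outliers. Outside the band its 4 copies ran from -7.42 to -7.10 on the epoxide array, from -7.01 to -6.77 on the GW9662 array and from -6.80 to -6.64 with vehicle. As for Csf2, such levels are below the lowest called well above background, and no difference is read from them. Neither Csf2 nor Il10 had most copies above background on any array.

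**Figure D2:**
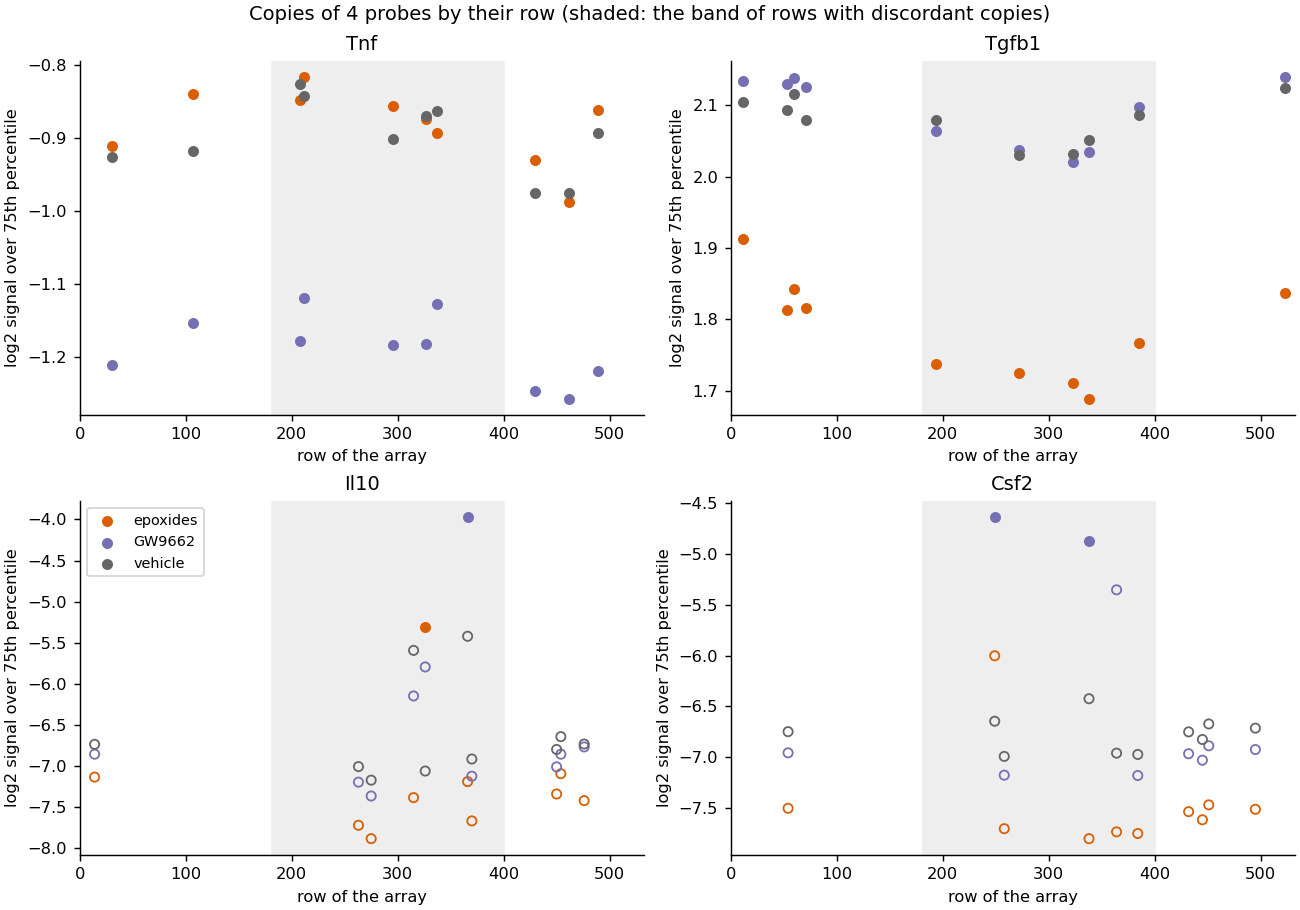
Level of each copy of the Tnf, Tgfb1, Il10 and Csf2 probes (vertical axis, log2 signal over the 75th percentile) against the row of the array that holds it, with the band of middle rows shaded. Tnf copies are lower on the GW9662 array and Tgfb1 copies lower on the epoxide array in every row, whereas the few bright copies of Il10 and Csf2 lie in the band.

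Il6, which drives the acute phase response and B cell help, was read by 1 spot in row 222 (chr5:30346367-30346426, plus strand, mm9). Its level was 4.92 on the epoxide array, 4.64 on the GW9662 array and 4.90 with vehicle. The GW9662 array alone was low. The ratio of GW9662 over vehicle was -0.26 and that of epoxides over vehicle 0.02, each with a scanner error of 0.20.

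Lif, which supports stem cell self-renewal and neuronal and uterine functions, was read by 1 spot in row 391 (chr11:4172032-4172091, plus strand, mm9). It stood at -0.43 on the epoxide array, -0.68 on the GW9662 array and -0.35 with vehicle. As for Il6, the GW9662 array was the low one. Its ratios over vehicle were -0.08 for epoxides and -0.34 for GW9662. With a trend in base composition and signal removed from each array they were -0.22 and -0.37, so that both treated arrays were low, and epoxides over GW9662 gave 0.15.

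Osm, encoding oncostatin M, lies close to Lif, with 31827 bases between the probes. Its spot in row 36, outside the band (chr11:4140146-4140205, plus strand, mm9), read 0.33 on the epoxide array, 0.20 on the GW9662 array and 0.69 with vehicle. Both treated arrays were low. Ratios over vehicle were -0.36 for epoxides and -0.49 (1.41-fold lower) for GW9662, and epoxides over GW9662 gave 0.13. Each had a scanner error of 0.20, which the error model sets nearly alike for all bright spots. The copy error of a ratio, taken from other probes with many copies, was 0.076 to 0.080. Neither is an error between cultures. With a trend in base composition and signal removed from each array, epoxides over vehicle gave -0.16, epoxides over GW9662 0.28 and GW9662 over vehicle -0.44. Of all genes measured in the GW9662 comparison, 1.63% had a ratio as low as Osm or lower, and in the epoxide comparison 17.2% did. Its ratio over vehicle was negative for both treated arrays, whichever is which.

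Tnf was read by 10 copies of a probe at chr17:35336795-35336854 (minus strand, mm9), 5 of them in the band. The level was -0.88 ± 0.05 on the epoxide array, -1.19 ± 0.05 on the GW9662 array and -0.90 ± 0.05 with vehicle (SD over 10 copies on 1 array). The GW9662 copies ran from -1.26 to -1.12 and the vehicle copies from -0.98 to -0.83, with no overlap, while the epoxide copies (-0.99 to -0.82) covered the range of vehicle. The ratio of GW9662 over vehicle was -0.29 (1.22-fold lower), negative in 10 of 10 copies, and 4.98% of all measured genes were as low or lower. It was -0.30 inside the band and -0.28 outside. Epoxides over GW9662 gave 0.31, positive in 10 of 10 copies. With the trend removed, the ratios were 0.29 for epoxides over vehicle, 0.51 for epoxides over GW9662 and -0.22 for GW9662 over vehicle.

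Tgfb1, the member with the opposite pattern, was read by 10 copies at chr7:26489877-26489936 (plus strand, mm9). Its level was 1.79 ± 0.07 on the epoxide array, 2.09 ± 0.05 on the GW9662 array and 2.08 ± 0.03 with vehicle (SD over 10 copies on 1 array). The epoxide copies, from 1.69 to 1.91, did not overlap those of GW9662 (2.02 to 2.14) or vehicle (2.03 to 2.12). Epoxides over vehicle gave -0.29 (1.23-fold lower) and epoxides over GW9662 -0.31, each negative in 10 of 10 copies, whereas GW9662 over vehicle gave 0.01. Of all measured genes, 22.6% had a ratio of epoxides over vehicle as low or lower. Across genes outside the band, that ratio was lower with a higher share of guanine and cytosine in the probe (r = -0.555 over 8892 genes read on the same 2 arrays), and the Tgfb1 probe has the highest share among the members. The other comparisons had r = -0.372 for GW9662 over vehicle (8886 genes) and r = -0.515 for epoxides over GW9662 (9000 genes). With a trend in base composition and signal removed from each array, epoxides over vehicle gave -0.0016 and epoxides over GW9662 -0.097.

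**Figure D3:**
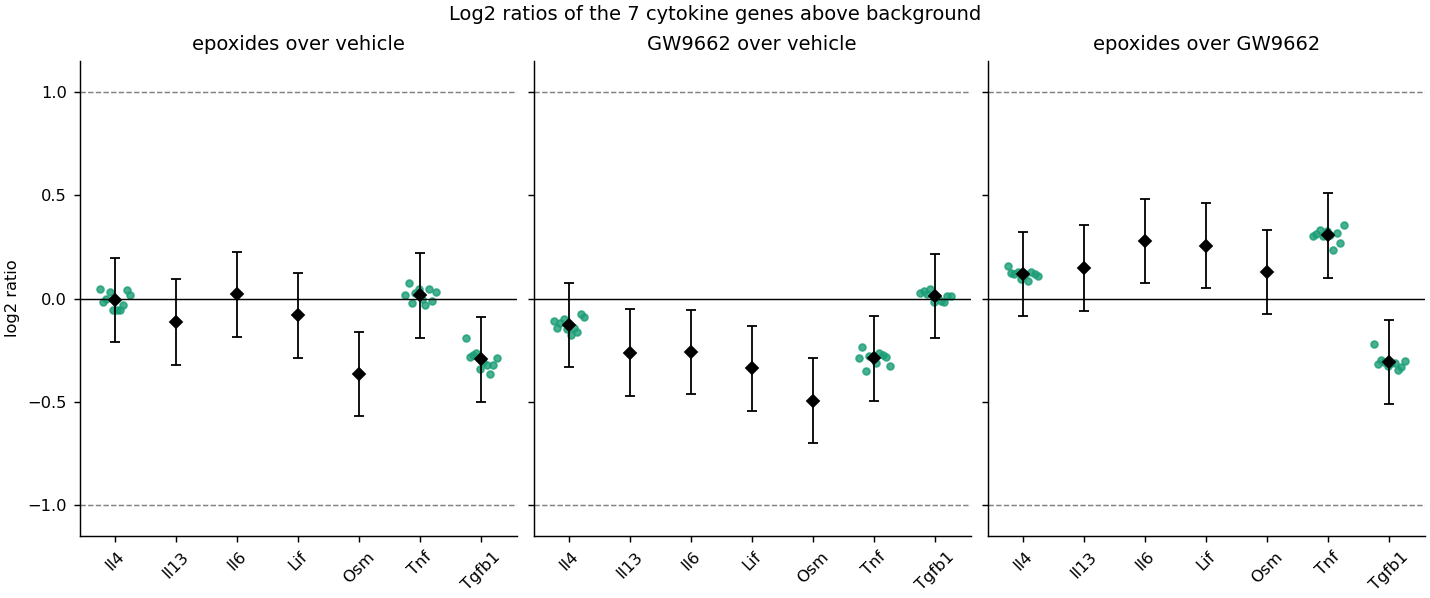
Log2 ratios (vertical axis) of the 7 cytokine genes above background for each treatment over vehicle and for epoxides over GW9662. Diamonds are the gene's value. Their bars are the error of a single-spot ratio from the scanner's error model, also where 10 copies were averaged. Green points are single copies of probes with 10 copies, and dashed lines mark 2-fold. Il4, Il13, Il6, Tnf, Osm and Lif lie below 0 for GW9662 over vehicle, and no gene reaches a dashed line.

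Read against the arrays as a whole, 0 of 7 measured members were 2-fold apart for epoxides over vehicle, where 2.28% of 15812 measured genes were. For GW9662 over vehicle it was 0 of 7 members and 0.823% of 15795 genes, and for epoxides over GW9662 0 of 7 members and 1.16% of 16044 genes. At 1.5-fold the members' count was also 0 in each comparison, against 10.2%, 1.84% and 5.73% of genes. The median ratio of the measured members was -0.08 for epoxides over vehicle, beside -0.07 over all measured genes. It was -0.26 for GW9662 over vehicle, beside -0.02, and 0.15 for epoxides over GW9662, beside -0.06. Negative ratios made up 5 of 7 members and 61.1% of genes for epoxides over vehicle, 6 of 7 members and 57.8% of genes for GW9662 over vehicle, and 1 of 7 members and 61.1% of genes for epoxides over GW9662. The comparisons with vehicle share the vehicle array, and the last comparison holds no array that the others lack.

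Of 20 receptor chains for these cytokines, 12 were above background on all 3 arrays. For IL-4 these were Il4ra, with levels of 3.42, 3.55 and 3.68 on the epoxide, GW9662 and vehicle arrays, and the shared gamma chain Il2rg. For IL-5 and GM-CSF they were Il5ra, Csf2ra, Csf2rb and its mouse paralog Csf2rb2, whose closely related transcripts may not be fully told apart. For IL-10 and TGF beta 1 they were Il10ra, Il10rb, Tgfbr1, Tgfbr2 and Eng, and for TNF it was Tnfrsf1b. Tnfrsf1a, the other TNF receptor, Tgfbr3, a TGF beta co-receptor, and Il13ra2, a decoy receptor for IL-13, were not above background on any array. The 4 chains that receive IL-6, LIF and oncostatin M were not above background either: Il6ra, Il6st (gp130), Lifr and Osmr. Il6st read -7.68, -7.10 and -6.89 in that array order, and Osmr -7.59, -7.05 and -6.84. Transcripts of the ligands Il6, Lif and Osm were thus measured in RNA in which those of their receptor chains were not detected by these probes.

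**Figure D4:**
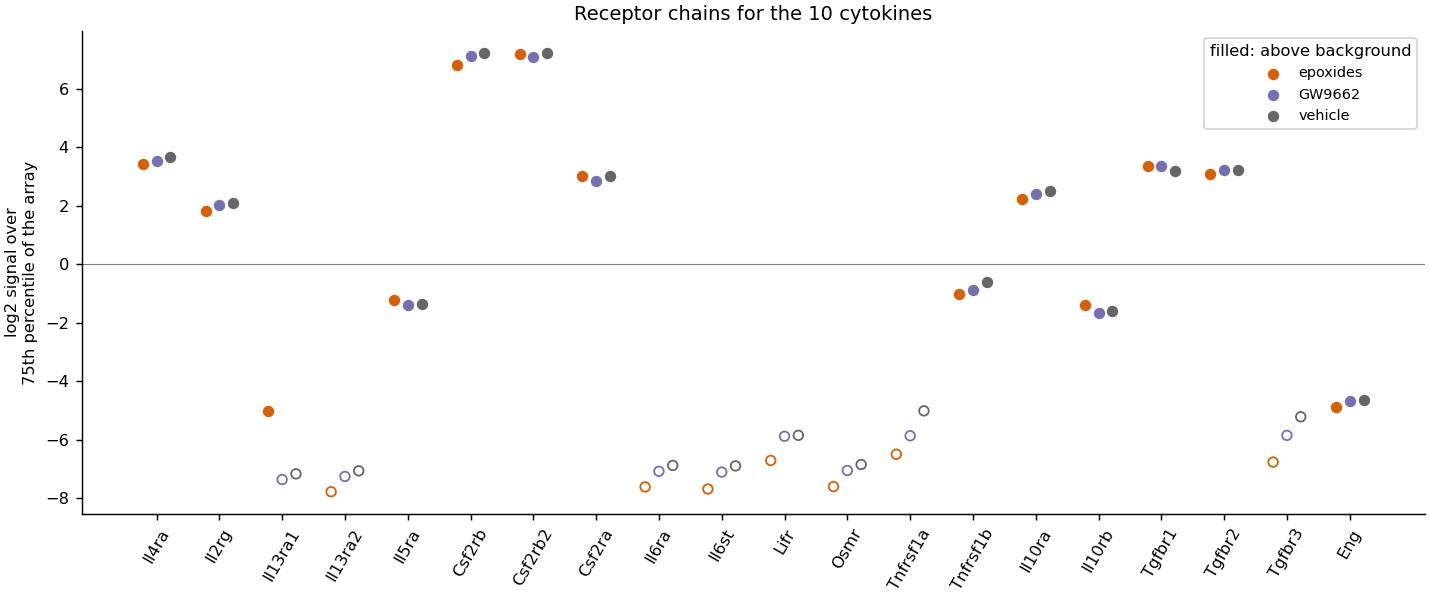
Level (vertical axis, log2 signal over the 75th percentile) of 20 receptor chains on the epoxide, GW9662 and vehicle arrays, filled where the gene is above background. Chains for IL-6, LIF and oncostatin M (Il6ra, Il6st, Lifr, Osmr) are open on all 3 arrays, and levels of different genes are not comparable.

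No receptor chain above background was 2-fold apart in any comparison. The median ratio of the 12 was -0.19 for epoxides over vehicle (from -0.40, Csf2rb, to 0.22, Il10rb) and -0.09 for GW9662 over vehicle (from -0.27, Tnfrsf1b, to 0.17, Tgfbr1). For epoxides over GW9662 it was -0.13. Il13ra1 was above background on the epoxide array alone, by 1 spot inside the band at -5.03, against -7.35 on the GW9662 array and -7.16 with vehicle.

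Further cytokines and growth factors of mast cells were mostly not above background. Of 22 on the list, 6 were above background on all 3 arrays: Il1b, Csf1, Hbegf, Vegfa, Tnfsf14 and Ebi3. Interferon gamma, Il9, Il33 and Il12b were among those that were not. No measured one was 2-fold apart. Il1b, the inflammatory interleukin 1 beta, read -2.25, -2.58 and -2.40 on the epoxide, GW9662 and vehicle arrays, a ratio of -0.18 for GW9662 over vehicle. Tnfsf14, the TNF family member LIGHT, had -0.29 for epoxides over vehicle. Guanine and cytosine make up 35% of the Il1b probe and 51.7% of the Tnfsf14 probe. The list's median over vehicle was -0.03 for epoxides and -0.12 for GW9662, and 0.09 for epoxides over GW9662.

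Signal transducers of these receptors were present, with 13 of 14 JAK, STAT, SMAD and TNF receptor adaptor genes measured. None was 2-fold apart, and their medians were 0.01, -0.02 and -0.05 for epoxides and for GW9662 over vehicle and for epoxides over GW9662. The gene farthest from 0 in both comparisons with vehicle was Smad3, which carries TGF beta signals, at -3.92 on the epoxide array, -3.78 on the GW9662 array and -4.60 with vehicle, read by a dim spot inside the band. All 15 feedback genes were measured and none was 2-fold apart. Socs3, the inhibitor induced by gp130 cytokines, read 2.76, 2.54 and 2.97 in that array order, by a single spot inside the band. Its ratio was -0.42 for GW9662 over vehicle. Nfkbiz, an NF-kappa B cofactor for Il6, had -0.54 for epoxides and -0.41 for GW9662 over vehicle, and its probe has 50% guanine and cytosine. Smad7, the inhibitor induced by TGF beta, was high on the epoxide array (-0.77, against -1.28 on the GW9662 array and -1.34 with vehicle), and its probe has 25.0% guanine and cytosine.

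Of 11 genes for the release or activation of TNF and TGF beta 1, 7 were measured and none was 2-fold apart. Their median was 0.15 for epoxides and -0.04 for GW9662 over vehicle, and 0.10 for epoxides over GW9662. Rhbdf1 and Rhbdf2 encode inactive rhomboid proteins that assist the TNF sheddase. Rhbdf1 had -0.35 for epoxides and -0.22 for GW9662 over vehicle, and Rhbdf2 0.29 and 0.19. Guanine and cytosine make up 50% of the Rhbdf1 probe and 28.3% of the Rhbdf2 probe. Adam17, the sheddase of TNF, had 0.30 for epoxides over vehicle and 0.07 for GW9662 over vehicle, and Furin, the convertase of pro-TGF beta 1, 0.18 and -0.05. Adam17 was read by a dim spot inside the band of middle rows. The genes listed for the decay of cytokine mRNAs had medians of -0.03, -0.04 and 0.02 over 13, 12 and 12 measured genes. These are for epoxides and for GW9662 over vehicle and for epoxides over GW9662. For epoxides over vehicle, Khsrp, a decay factor, had -0.73 and Zc3h12a, the RNase Regnase-1, had 0.44. Their probes have 38.3% and 31.7% guanine and cytosine. Rc3h2, a Roquin protein, had 0.26 and Zfp36l1, which binds AU-rich elements, -0.24 for GW9662 over vehicle.

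Transcription factors that act on cytokine genes were measured in 20 of 22 cases in each comparison, and none was 2-fold apart. For GW9662 over vehicle the early factors stood lowest: Egr2 had -0.68, Egr1 -0.62, Fos -0.59 and Junb -0.42. Egr1 was read by a single spot inside the band of middle rows. Nfatc2, Rela, Gata1 and Gata2, which act at the Il4, Il13 and Tnf genes, lay between -0.14 and 0.05. The lists were drawn up with earlier results of these data known, and Egr1 and Egr2 had been described as low on this array before, so they are not independent support. For epoxides over vehicle the genes farthest from 0 were Nfkb1 at 0.73, whose probe has 21.7% guanine and cytosine, Nfatc3 at -0.58, Junb at -0.57 and Fos at -0.41. The shares of guanine and cytosine in the probes of Nfatc3, Junb and Fos were 35%, 55% and 35%.

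The 250 bases before the start of the genes that were lower by 0.257 or more on the GW9662 array are shown. Genes that the RefSeq promoter table (GRCm38.p6) lacks are left out. The genes were picked by these ratios. Il4 shared the direction, at -0.13, but is not shown, and its promoters hold no match. The windows shown are chr5:30012864-30013113 (plus strand) for Il6, chr11:4257318-4257567 (plus strand) for Lif, chr11:53634703-53634952 (minus strand) for Il13 and chr17:35202008-35202257 (minus strand) for Tnf. Sequences run 5′ to 3′ along the gene, and capitals mark matches to the motifs searched.
Il6: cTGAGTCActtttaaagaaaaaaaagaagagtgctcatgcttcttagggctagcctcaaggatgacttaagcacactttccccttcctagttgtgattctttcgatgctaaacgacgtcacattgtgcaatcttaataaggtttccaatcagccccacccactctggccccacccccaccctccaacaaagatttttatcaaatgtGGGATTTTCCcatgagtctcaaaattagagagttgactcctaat
Lif: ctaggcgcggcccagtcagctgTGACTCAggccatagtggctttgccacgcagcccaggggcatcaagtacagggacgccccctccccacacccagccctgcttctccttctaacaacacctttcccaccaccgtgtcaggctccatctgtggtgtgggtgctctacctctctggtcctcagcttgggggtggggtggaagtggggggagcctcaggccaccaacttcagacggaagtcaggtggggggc
Il13: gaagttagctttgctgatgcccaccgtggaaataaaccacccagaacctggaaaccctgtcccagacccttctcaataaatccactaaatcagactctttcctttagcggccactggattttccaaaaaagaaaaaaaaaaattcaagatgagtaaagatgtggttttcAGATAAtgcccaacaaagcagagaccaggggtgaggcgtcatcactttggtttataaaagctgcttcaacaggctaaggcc
Tnf: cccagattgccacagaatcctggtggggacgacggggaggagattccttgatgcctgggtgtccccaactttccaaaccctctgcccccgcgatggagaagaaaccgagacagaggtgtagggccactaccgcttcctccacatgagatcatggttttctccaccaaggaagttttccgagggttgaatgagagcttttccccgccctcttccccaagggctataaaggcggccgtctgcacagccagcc
The motifs, each searched on both strands, were GGG and TTTCC with any 2 bases between for NF-kappa B, TGANTCA for AP-1, TGACGTCA for CRE-binding factors, AGATAA for GATA factors and 2 copies of AGGTCA with any 1 base between for PPAR with RXR. No match overlaps another. The table holds 8 of the 10 members, in 9 promoters. Il6 has an NF-kappa B match from position -44 and an AP-1 match from -249, Lif an AP-1 match from -228, Il13 a GATA match from -81 and Csf2 a GATA match from -247. Of all 32851 promoters, 1.41% hold the NF-kappa B motif, 6.75% AP-1, 1.55% CRE, 9.99% GATA and 0.033% the PPAR motif, which no member holds in this window. A match is a run of letters and no evidence of binding. The PPAR motif is so rare that its absence from 9 promoters is uninformative.

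**Figure D5:**
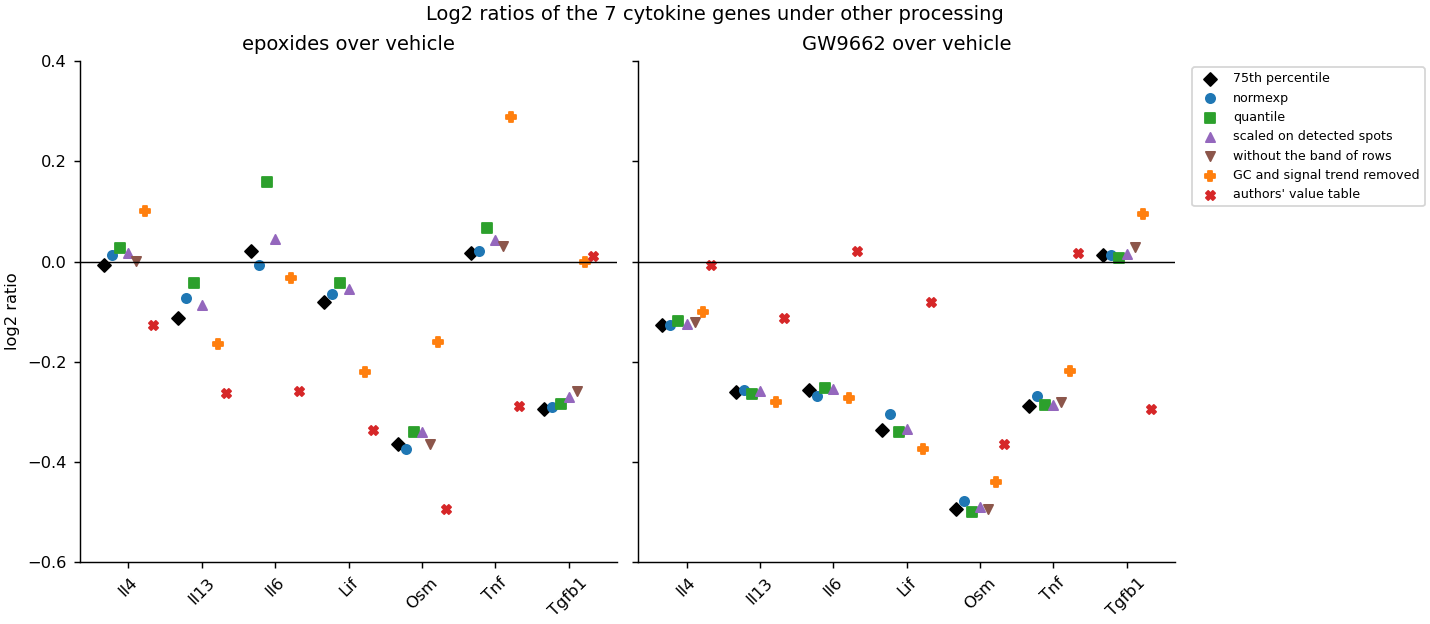
Log2 ratios (vertical axis) of the 7 measured cytokine genes for epoxides over vehicle and GW9662 over vehicle under 7 ways of processing, with 1 marker for each. For GW9662 over vehicle, Il4, Il13, Il6, Lif, Osm and Tnf stay below 0, except Il6 and Tnf in the authors' value table, whose treated columns are assigned the other way round from the scanner files, and Il13, Il6 and Lif have no value without the band of rows.

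The GW9662 ratios of Il4, Il13, Il6, Lif, Osm and Tnf kept their negative sign under each alternative that gives a value, other than the authors' value table, where Il6 and Tnf had 0.02 in the GW9662 column. With the trend in base composition and signal removed, epoxides over vehicle gave 0.29 for Tnf, 0.10 for Il4, -0.16 for Osm and -0.22 for Lif. With quantile normalization Il6 had 0.16.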

How the data were processed

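RNA of 3 samples (epoxides, GW9662, vehicle) was labelled with Cy3, from 200 ng of total RNA per the labels, and hybridised to 1-colour Agilent arrays. The deposited processed signal is an intensity, background-subtracted and detrended within each array per the file headers, from Agilent Feature Extraction 11.5.1.1 per the submitters' processing notes. The deposited value table holds a ratio, the processed intensity over the 75th percentile of an array, with column medians of 0.0455, 0.0369 and 0.0475 for epoxides, GW9662 and vehicle. Its scale and centring were found by matching; how its columns were assigned is not given in the sources used here.

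From the scanner files, log2 intensity minus that of the 75th percentile of non-control spots was computed (Python 3.11.15, numpy 2.4.6, pandas 2.3.3). Spots with outlier flags (221, 251 and 230 on the epoxide, GW9662 and vehicle arrays) were left out, and copies of a probe were averaged. Of 39429 probes, 28324 were named through the RefSeq table and the others by the file's gene name. The probe of a gene with the highest level over all arrays stands for it, and a gene counts as measured in a comparison if the majority of its unflagged copies passed the scanner's background call on each array compared. Members were all named. From the other lists the rule took counts, medians, ranges and up to 4 genes farthest from 0, and further genes named with values were picked after their values were seen. With 1 array per group there was no test, and precision is limited by the number of arrays. The median SD among copies, over 210 probes with at least 5 copies, was 0.0543, 0.0537 and 0.0591 on the 3 arrays. The scanner's error model gives the error of single spots. The calculation was tested on arrays simulated from the vehicle array with known folds. The simulation had no band, no outlier spots and the same background calls on every array. It therefore says nothing on how the band, dim probes or single arrays limit the results. Alternatives were quantile normalization, normexp in limma 3.58.1 with R 4.3.3 (offset 50), scaling on detected spots, the value table, outlier spots kept, no dim filter, the mean of probes, leaving out a band of middle rows that ends at row 400 of 532, removal of a quadratic trend in base composition and signal, and 1.5-fold. The members, lists and alternatives were chosen with earlier results of these data known. Coordinates of probes come from the files (mm9), and exon annotation of that build was not used here.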

Additional observations from a re-analysis of the deposited data

How the results depend on the processing

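Each comparison rests on 1 array per group, so no setting tests whether a difference would recur. No paired analysis was possible because each group has 1 array. Il13, Il6, Lif and Il5 have 1 spot each inside the band of middle rows and no value without it. With the authors' value table the medians of the measured members were -0.262 and -0.0802 over vehicle for epoxides and GW9662, and -0.150 for epoxides over GW9662, and 130, 361 and 186 genes were 2-fold apart (153 of the last higher and 33 lower), since its treated columns are assigned the other way round from the scanner files. Without the filter on dim probes the epoxide median was -0.20 over 10 members, 1 member (Csf2, whose bright copies lie in the band) was 2-fold lower for epoxides over GW9662, and 2956, 2046 and 2422 genes were 2-fold apart, with medians over all genes of -0.32, -0.11 and -0.24 for epoxides and for GW9662 over vehicle and for epoxides over GW9662. Counts over all genes in that order of comparisons were 361 (34 higher and 327 lower), 130 (56 and 74) and 186 (33 and 153). They were 1610, 291 and 920 at 1.5-fold, and 135, 3 and 27 without the band, with 14, 3 and 11 higher among fewer genes tested. For epoxides over vehicle they were 143 with normexp, 203 with quantile normalization (62 higher and 141 lower) and 176 with the trend in base composition and signal removed (58 and 118). For epoxides over GW9662 they were 86 with normexp, 142 with quantile normalization (56 and 86) and 139 with the trend removed (53 and 86). Of 180 member ratios under the alternatives, 66 were identical to the reported value, among them every one with outlier spots kept, with no filter on dim probes or with the mean of probes, since these settings left the 7 genes' values as they were. Of the other 114, 80 moved by less than the copy error of a ratio (0.0764 to 0.0803) and 34 by more: the 21 of the value table, 11 with the trend removed and 2 with quantile normalization. Where not stated, the cause was not tested.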
